A study of Mus musculus with 4 samples.

Results

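Astrocytes and the radial glia-like cells (RGLs) that generate neurons in the adult dentate gyrus use a common set of homeostatic genes, and 10 of them are described here in sorted nuclei: Slc1a2, Slc1a3, Slc6a11, Glul, Aldoc, Aqp4, Gja1, Gjb6, Gfap and Hopx. They were taken by name as a list of astroglial genes, by a choice made with earlier results of these data known, and are 10 of the 45706 features of the count files. All 10 passed the filter on low counts and were among the 13513 genes tested. Nuclei came from young-adult male and female mice carrying a tamoxifen-inducible Cre and CAGfloxStop-Sun1sfGFP, in which tamoxifen turns on a green tag in the nuclear membrane of the cells with active Cre and of all their progeny. Tagged nuclei were sorted 1, 2, 4 or 8 weeks after induction (cohorts w1, w2, w4 and w8), and every cohort had the same alleles and the same induction. Each cohort is 1 library, made from 4 pooled left dentate gyri. The clusters are the 13 that the authors deposited, named as in their table. Only cells with active Cre at induction and their descendants carry the tag, so other astrocytes were not sampled.

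Astrocytes clear transmitters from the extracellular space and keep potassium, water and energy supply steady around neurons. Glutamate enters them through Slc1a2 and Slc1a3 and is turned into glutamine by Glul, while GABA enters through Slc6a11. Gap junctions built from the connexins Gja1 and Gjb6 join the cells into a network, Aqp4 passes water at their endfeet, Aldoc is a brain enzyme of glycolysis, and Gfap is their intermediate filament. RGLs share much of this programme, and Hopx, a small homeodomain protein without a DNA-binding function of its own, is a known marker of quiescent stem cells of the dentate gyrus. Neural progenitor cells (NPCs) and neuroblasts (NB1) follow the RGLs on the path to granule cells.

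The kept nuclei had between 13227971 UMIs (w1) and 28595331 UMIs (w8) per library, where a UMI is 1 counted RNA molecule. Cluster Astro held 67 nuclei, of which w1 gave 22, w2 21, w4 24 and w8 0. Cluster RGL held 1387 nuclei, with 486, 461, 357 and 83 in w1 to w8, and cluster NPC held 211, with 112, 75, 22 and 2. The median nucleus had 4670 UMIs in Astro, 4091 in RGL and 4278 in NPC. A level is given in CPM, the UMIs of a gene with all UMIs of the same nuclei scaled to 1000000, and shares are of nuclei with at least 1 UMI. Exact 95% intervals (Poisson for levels, Clopper-Pearson for shares) cover counting error only, and weeks were not tested against each other, 1 pool standing for each. Of 10 astrocyte markers, 8 were highest in Astro, and Grin2c, a glutamate receptor subunit of astrocytes, stood at 307 CPM there and at 2.79 in RGL. Htra1, with a smaller gap, stood at 558 and 108. The markers not highest in Astro, Gjb6 and Ranbp3l, were highest in the cluster deposited as Peri. The list sum lay between 13595 and 17812 CPM over the Astro libraries, between 3947 and 6024 in RGL and between 157 and 415 in NPC. In OPC it lay between 5266 and 6673, overlapping the range of RGL, and nearly all of it came from Gpc5 (5743.5 CPM). Gpc5 also made up most of the sum in Astro (12939 CPM) and in RGL (3838.5). The list sum counts 3 of the genes described here (Aqp4, Gjb6 and Slc6a11). Of 11 RGL markers 6 were highest in RGL, 2 in NPC and 1 each in Astro, Peri and OPC, and of the NPC list 9 of 9 genes were highest in NPC. None of 6 endothelial markers had a UMI in Astro, and the microglia list reached 56.7 CPM there and 68.5 in RGL. No Astro nucleus shared its barcode with a nucleus of another library.

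Since the members fell together between RGL and NPC, the 250 bases before their start sites in the RefSeq promoter table (GRCm38.p6) were searched on both strands for 4 motifs of glial regulators. These were the NFI motif TTGGC, the SOX motif ACAAT, the STAT motif TTCNNNGAA and the RBPJ motif GTGGGAA. The table held 9 of the 10 genes, and the start site nearest to the start of the GENCODE gene was used for each. For Slc1a2 and Gfap that start lies 47779 and 3712 bases inside the gene. The NFI motif was present in 4 of 9 windows against 41.5% of all 32851 windows, the SOX motif in 2 of 9 against 27.7%, the STAT motif in 1 of 9 against 7.02% and the RBPJ motif in 1 of 9 against 5.42%. These are matches of letters, not sites of binding. The windows of the members that were higher in RGL (Hopx, Slc1a3) and of the connexins, which were lower there, are shown 5′ to 3′ with motif letters in capitals.
Hopx (chr5:77115124-77115373, minus strand): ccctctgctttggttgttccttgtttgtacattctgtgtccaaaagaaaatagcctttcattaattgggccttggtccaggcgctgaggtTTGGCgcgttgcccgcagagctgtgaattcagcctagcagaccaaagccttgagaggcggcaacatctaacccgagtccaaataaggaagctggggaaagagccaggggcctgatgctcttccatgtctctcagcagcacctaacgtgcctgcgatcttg
Slc1a3 (chr15:8710808-8711057, minus strand): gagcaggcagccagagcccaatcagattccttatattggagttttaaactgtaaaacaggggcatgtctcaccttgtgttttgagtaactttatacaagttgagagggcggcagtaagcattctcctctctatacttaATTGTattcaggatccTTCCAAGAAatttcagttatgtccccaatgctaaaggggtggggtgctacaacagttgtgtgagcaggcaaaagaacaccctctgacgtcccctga
Gja1 (chr10:56377050-56377299, plus strand): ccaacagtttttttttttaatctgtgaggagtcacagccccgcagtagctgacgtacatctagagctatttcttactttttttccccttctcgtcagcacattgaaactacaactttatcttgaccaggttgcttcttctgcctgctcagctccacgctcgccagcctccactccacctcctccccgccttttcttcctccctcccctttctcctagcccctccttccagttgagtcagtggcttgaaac
Gjb6 (chr14:57133612-57133861, minus strand): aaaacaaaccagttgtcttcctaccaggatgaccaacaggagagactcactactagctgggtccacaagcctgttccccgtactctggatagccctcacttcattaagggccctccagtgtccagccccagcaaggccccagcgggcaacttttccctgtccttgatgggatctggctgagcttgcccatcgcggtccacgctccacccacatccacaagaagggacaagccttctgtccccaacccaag
In the Hopx window the capitals are the NFI motif, and in the Slc1a3 window they are the reverse complement of the SOX motif followed by the STAT motif. Neither connexin window held any of the 4 motifs, and none of the printed windows overlaps an annotated exon. Motifs were not confined to members higher in RGL. Of members lower in RGL, the windows of Slc1a2, Glul and Aldoc, not printed, held the NFI motif. That of Aldoc also held the SOX and RBPJ motifs.

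All positions are on GRCm38 with GENCODE release M21, and all 10 genes are protein-coding. Glul lies on chromosome 1 (153899944 to 153909723), Slc1a2 on chromosome 2 (102658659 to 102790784), Hopx on chromosome 5 (77086988 to 77115121) and Slc6a11 on chromosome 6 (114131241 to 114249952). Gja1 lies on chromosome 10 (56377330 to 56402513), Aldoc on chromosome 11 (78322968 to 78327781) and Gfap on the same chromosome (102887336 to 102900912). Gjb6 lies on chromosome 14 (57123303 to 57133611), Slc1a3 on chromosome 15 (8634124 to 8710764) and Aqp4 on chromosome 18 (15389496 to 15410982). Overlapping genes with UMIs of their own were Gm13872 (345 UMIs, antisense to Slc1a2), Gm26668 (3081 UMIs, opposite Gfap), Teddm2 (544 UMIs, opposite Glul) and Hopxos (93 UMIs, opposite Hopx), and how the counting treated reads in the overlap is not given in the sources used here.

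From Astro to RGL the homeostatic genes were lower as a rule, but 2 of them went the other way. Astro to RGL is a contrast of cell types and not a course of development. In the paper RGLs generate astrocytes or NPCs, and its trajectory starts at RGL. For this contrast, words such as fell and rose mean lower and higher in RGL. Summed over the 10 genes, the level was 12589.9 CPM in Astro (interval 12213 to 12976), 9101 in RGL (9026 to 9177), 2875 in NPC (2766 to 2987) and 832 in NB1 (815 to 850), and most of these UMIs were of Slc1a2 and Slc1a3. Sums of UMIs per library and cluster were compared with edgeR's quasi-likelihood test with cluster and library as terms. The call needed an adjusted p (Benjamini-Hochberg) of 0.05 or less and a change of 1.5-fold or more. Of the 10 members 8 were lower in RGL and 2 were higher, where 4.82% of all genes tested were called lower and 4.77% higher. The median log2 change was -1.02 over the members and 0.27 over all genes tested. All 10 kept their direction in 3 of 3 libraries that held both clusters. The share of all genes that did so, here or from RGL to NPC, was not counted. As the authors had already used these expression values to draw the clusters, the p-values only describe the clusters as drawn.

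**Figure D1:**
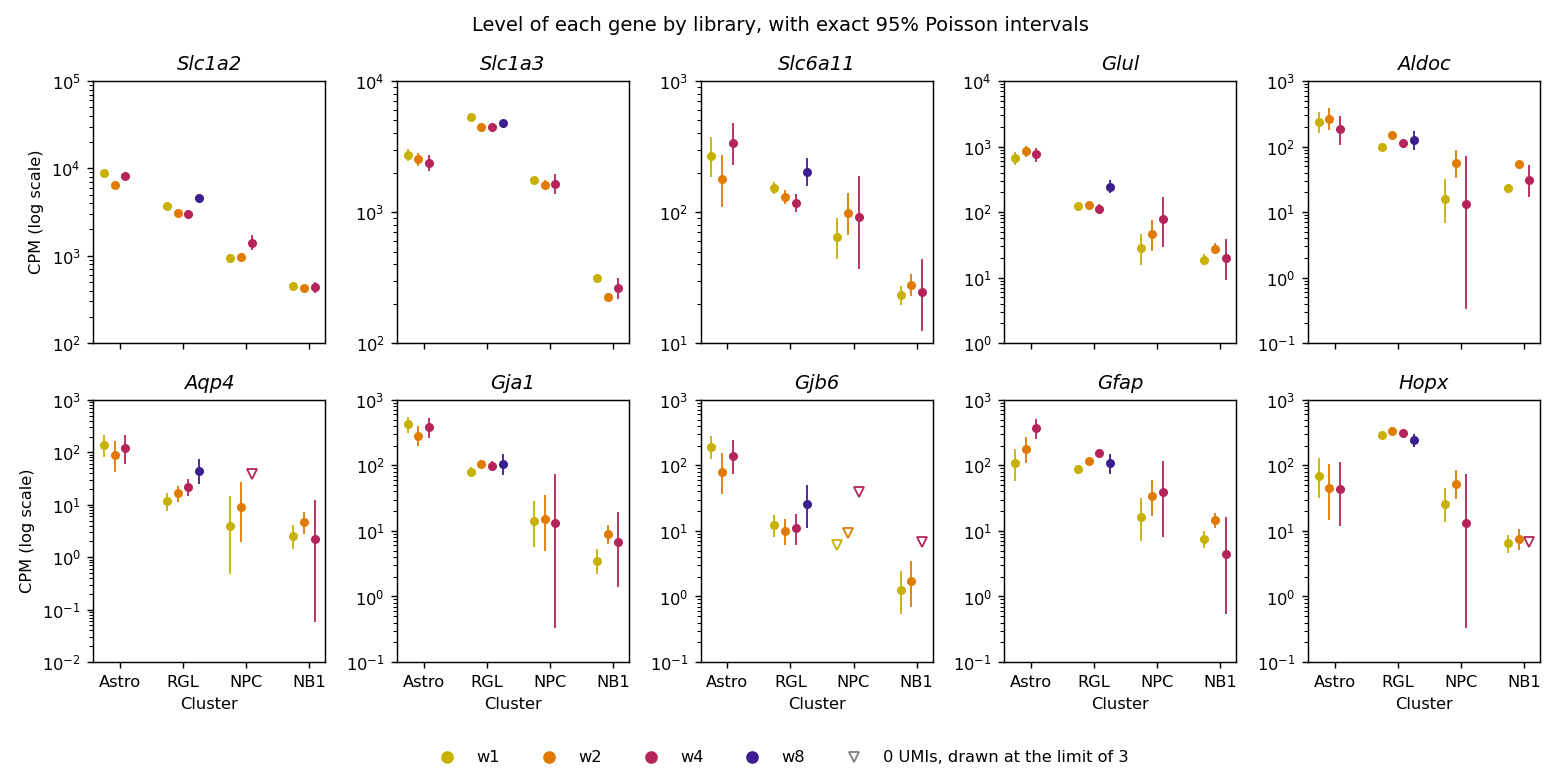
Level of each gene in CPM (log axis) by library in the clusters Astro, RGL, NPC and NB1, with exact 95% Poisson intervals; open triangles mark libraries with 0 UMIs, drawn at the limit of 3 counts. Hopx lies between 245 and 329 in the RGL libraries, above its 43.4 to 69.0 in Astro, whereas Glul lies between 659 and 845 in Astro, above its 112 to 245 in RGL.

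The glutamate transporters moved in opposite directions. Slc1a2 stood at 8856, 6513 and 8237 CPM in Astro of w1, w2 and w4, and at 3681, 3118, 3018 and 4539 in RGL of w1, w2, w4 and w8. Slc1a3 stood at 2750, 2536 and 2373 in Astro and at 5293, 4435, 4477 and 4749 in RGL. The Astro and RGL ranges of either gene did not overlap, but the share of all genes without overlap was not counted. The log2 change was -1.18 for Slc1a2 (SE 0.19, edgeR adjusted p = 4.6e-06) and 0.85 for Slc1a3 (SE 0.22, edgeR adjusted p = 0.0051). Nearly every nucleus of both clusters had a UMI of each gene, 100% and 99.6% for Slc1a2 and 98.5% and 99.5% for Slc1a3, so these shares could not show a difference. The ratio of Slc1a2 to Slc1a3 UMIs turned over, from 3.07 in Astro (interval 2.84 to 3.32, range over libraries 2.57 to 3.47) to 0.707 in RGL (0.694 to 0.719, range over libraries 0.674 to 0.956). It was 0.589 in NPC (0.542 to 0.640) and 1.59 in NB1 (1.52 to 1.66). Over w1, w2 and w4 the ratio ranged from 0.544 to 0.864 in NPC, overlapping RGL, and from 1.45 to 1.88 in NB1.

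Glul, which makes glutamine, showed the clearest difference among the enzymes. It stood at 659, 845 and 759 CPM in the Astro libraries and at 125, 127, 112 and 245 in those of RGL, a 5.81-fold lower pooled level. The log2 change was -2.48 (SE 0.22, edgeR adjusted p = 3.5e-13), and 85.1% of Astro nuclei had a UMI against 36.0% of RGL nuclei. After thinning each nucleus to 2000 UMIs these shares were 71.6% and 19.2%, beside 13.3% in Oligo and 0.507% in mature granule cells (GCmat1). Aldoc fell less, from 237, 267 and 184 CPM to values between 97.9 and 150 (log2 change -0.87, SE 0.28, edgeR adjusted p = 0.038). The Astro and RGL ranges of Glul and of Aldoc did not overlap, but the share of all genes without overlap was not counted. The GABA transporter Slc6a11 stood at 268, 178 and 336 in Astro and between 118 and 204 in RGL, so that its ranges overlapped (log2 change -0.84, SE 0.25, edgeR adjusted p = 0.018).

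Genes of the astrocytic network and endfeet were lower in RGL as well. Gjb6 had 47 UMIs in the 67 Astro nuclei and 72 in the 1387 RGL nuclei, or 140 against 11.8 CPM. Its level lay between 80.1 and 192 in Astro and between 9.87 and 25.5 in RGL (log2 change -3.48, SE 0.45, edgeR adjusted p = 4.2e-08). Gja1, the other connexin, stood at 421, 285 and 379 in Astro and between 80.5 and 105 in RGL (log2 change -1.93, SE 0.25, edgeR adjusted p = 3.1e-08). The ratio of Gja1 to Gjb6 UMIs was 2.60 in Astro (interval 1.84 to 3.72, range over libraries 2.20 to 3.56) and 7.96 in RGL (6.22 to 10.3, range over libraries 4.12 in w8 to 10.6 in w2). The water channel Aqp4 stood at 138, 89.0 and 119 in Astro and at 11.7, 16.4, 22.1 and 44.6 in RGL (log2 change -2.74, SE 0.40, edgeR adjusted p = 8.0e-07). None of these 3 genes overlapped between the clusters, and the share of all genes without overlap was not counted.

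Gfap and Hopx, both known from radial glia, also parted. Hopx stood at 69.0, 44.5 and 43.4 CPM in Astro, from 18 UMIs in all, and at 295, 329, 316 and 245 in RGL. Its log2 change was 2.59 (SE 0.36, edgeR adjusted p = 2.4e-07), the largest increase among the members, and 20.9% of Astro nuclei and 64.5% of RGL nuclei had a UMI. After thinning these were 7.46% and 42.0%, with 2.22% in Oligo. Gfap stood at 107, 178 and 368 in Astro and at 87.9, 118, 157 and 108 in RGL, so that the ranges overlapped. Its log2 change was -0.77 (SE 0.26, edgeR adjusted p = 0.047), the weakest call of the 10. Relative to the median change of all genes, 0.27, Gfap was at -1.04, Slc1a3 at 0.57 and Hopx at 2.32. RLE scaling brought that median to 0.07 and left the same 8 lower and 2 higher, while over all genes it called 455 higher and 854 lower in place of 644 and 651. DESeq2 called 318 higher and 890 lower. The number called dropped to 7 of 10 without w1 (Aldoc, Gfap and Slc6a11 lost), without w2 (Aldoc, Gfap and Slc1a3 lost) and without w4 (Gfap, Slc1a3 and Slc6a11 lost), and to 9 without w8 (Gfap lost). It was also 7 with DESeq2 (Aldoc, Gfap and Slc1a3 lost) and 6 after thinning each nucleus to 2000 UMIs (Aldoc, Aqp4, Gfap and Slc6a11 lost), with no change of direction. Thinning brought the log2 change of Aqp4 to -1.63 (edgeR adjusted p = 0.11) and that of Hopx to 3.33 (edgeR adjusted p = 2.7e-08).

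**Figure D2:**
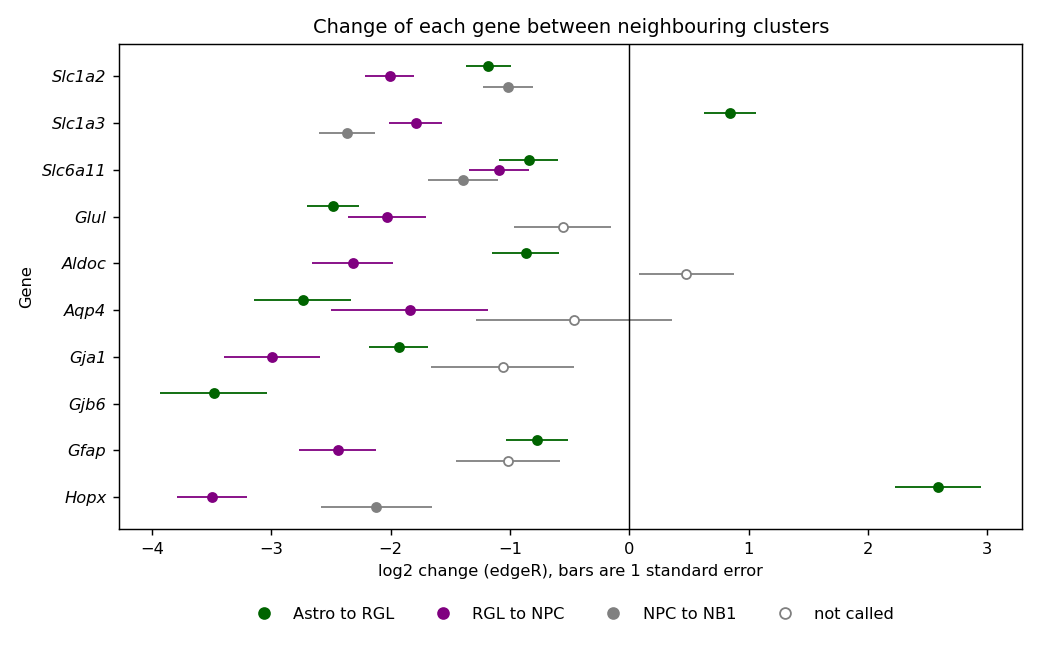
log2 change of each gene (x axis, edgeR, bars are 1 standard error) for the comparisons Astro to RGL, RGL to NPC and NPC to NB1. Filled points passed both thresholds, and changes of Gjb6 that involve NPC are left out because NPC had 0 UMIs of it. From Astro to RGL only Hopx (2.59) and Slc1a3 (0.85) lie right of 0, and from RGL to NPC every point drawn lies left of it.

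From RGL to NPC all 10 levels fell, in 3 of 3 libraries each, where 15.9% of all genes tested were called lower. Not each of these falls was beyond counting error. The interval of the NPC to RGL ratio allowed no change for Slc6a11 in w2 (0.505 to 1.09) and w4 (0.308 to 1.64). The same held for Glul in w4 (0.254 to 1.57), Aqp4 in w1, w2 and w4, and Gjb6 in w2 and w4. With 0 UMIs of Aqp4 and Gjb6 in NPC, w4 could not show a fall of either. Over the 10 members the median log2 change was -2.18 as fitted and -2.02 with Gjb6 set at its bound, beside -0.05 over all genes. Aqp4 and Gjb6 passed the filter on low counts only through other clusters, and in a fit of RGL and NPC alone 8 members were tested and 8 called. That fit still lets a gene pass the filter through its RGL sums alone, so it is no independent support. Hopx fell most among the genes detected in both clusters, from values between 245 and 329 CPM to 26.1, 52.4 and 13.1 in NPC of w1, w2 and w4 (log2 change -3.50, SE 0.29, edgeR adjusted p = 1.9e-14). The pooled level of Hopx was 88.3% lower. Gja1 followed, with 14.0, 15.4 and 13.1 in NPC from 13 UMIs in all (log2 change -2.99, SE 0.40, edgeR adjusted p = 3.1e-08). No UMI of Gjb6 was found in 211 NPC nuclei, which allows up to 3.28 CPM, so that it was at least 3.59-fold lower than in RGL. That bound is pooled over libraries. Taken singly, the limit was 6.01 CPM in w1 and 9.24 in w2, against 12.2 and 9.87 in RGL.

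The transporters that were most abundant in RGL kept a part of their level, but not they alone. The pooled ratio of NPC to RGL was 0.290 for Slc1a2 and 0.349 for Slc1a3, beside 0.297 for Glul and 0.315 for Aqp4. Slc1a2 stood at 950, 970 and 1416 CPM in NPC (log2 change -2.01, SE 0.21, edgeR adjusted p = 1.4e-11). Slc1a3 stood at 1747, 1611 and 1638 (log2 change -1.79, SE 0.22, edgeR adjusted p = 2.9e-09), and 93.8% of NPC nuclei still had a UMI of it. After thinning to 2000 UMIs that share was 85.0% in NPC, 99.0% in RGL and 13.3% in Oligo, a cluster off the path to granule cells. These clusters had unthinned medians of 4278, 4091 and 4801 UMIs. The GABA transporter Slc6a11 fell least, to 64.1, 98.6 and 91.7 CPM (log2 change -1.09, SE 0.25, edgeR adjusted p = 4.0e-04). Except for Aqp4 and Gjb6, no member overlapped between the RGL and NPC libraries. The share of all genes without overlap was not counted. Aqp4 and Gjb6 had 0 UMIs in NPC of w4, which allows up to 39.3 CPM, a level within or above their ranges in RGL.

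The remaining members rested on few UMIs in NPC. Gfap had 22 UMIs there, at 16.0, 33.9 and 39.3 CPM (log2 change -2.44, SE 0.32, edgeR adjusted p = 1.3e-08). Glul had 35 UMIs (28.1, 46.2 and 78.6 CPM) and a log2 change of -2.03 (SE 0.33, edgeR adjusted p = 1.6e-06). Aldoc had 27 UMIs, with 55.5 CPM in w2 against 16.0 in w1 and 13.1 in w4, and a log2 change of -2.32 (SE 0.34, edgeR adjusted p = 2.2e-07). Aqp4 had 5 UMIs in all (log2 change -1.84, SE 0.66, edgeR adjusted p = 0.027). The granule cell markers summed to between 318 and 471 CPM over the RGL libraries and between 1153 and 1242 over those of NPC. The 6 endothelial markers summed to between 9.56 and 21.3 CPM in RGL and between 12.3 and 192 in NPC, where 2 of them had their highest level. NPCs lie on the path to granule cells, and Rbfox3 of the granule cell list stood at 20.2 CPM in RGL, 615 in NPC and 887 in NB1. Whether other cell types had a part in the RGL to NPC changes was not tested. The number called was 7 without w1 (Aqp4, Gjb6 and Slc6a11 lost), and Aqp4 alone was lost without w2, without w4, with DESeq2 and after thinning. Without w2 the log2 change was -3.06 for Aldoc and -2.52 for Aqp4.

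From NPC to NB1 the decline went on for 4 genes. Slc1a3 fell from its NPC values to 315, 227 and 264 CPM (log2 change -2.36, SE 0.24, edgeR adjusted p = 4.5e-12), Hopx to 6.44 and 7.58 in w1 and w2 with 0 UMIs in w4 (log2 change -2.12, SE 0.47, edgeR adjusted p = 2.5e-04), Slc6a11 to values between 23.3 and 27.9 (log2 change -1.39, SE 0.29, edgeR adjusted p = 1.4e-04), and Slc1a2 to values between 426 and 455 (log2 change -1.01, SE 0.21, edgeR adjusted p = 1.1e-04). Hopx, too, passed the filter only through other clusters, and in a fit of NPC and NB1 alone 5 members were tested and 3 called (Slc1a2, Slc1a3 and Slc6a11). Here, too, a gene can pass the filter through either cluster alone. In the fit that also held Astro, RGL and the later neuronal clusters these 4 were the only members called, where 14.6% of all genes tested were called lower. DESeq2 left the same 6 uncalled, while RLE scaling called Gfap as well, and over all genes the split was 1986 higher and 1978 lower with edgeR and 1413 higher and 2112 lower with DESeq2. Glul, Gfap, Aqp4, Gja1 and Aldoc did not pass. Their 95% intervals of the log2 change reached from -1.35 to 0.23 for Glul, from -1.87 to -0.17 for Gfap, from -2.07 to 1.14 for Aqp4, from -2.23 to 0.12 for Gja1 and from -0.30 to 1.26 for Aldoc. For Gjb6, with 0 UMIs in NPC and 15 in 2578 NB1 nuclei, no change is given. The pooled level of Slc1a3 was 65.1% lower in NPC than in RGL and 83.2% lower in NB1 than in NPC, and that of Hopx 88.3% and 81.7%, but the steps were not tested against each other.

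**Figure D3:**
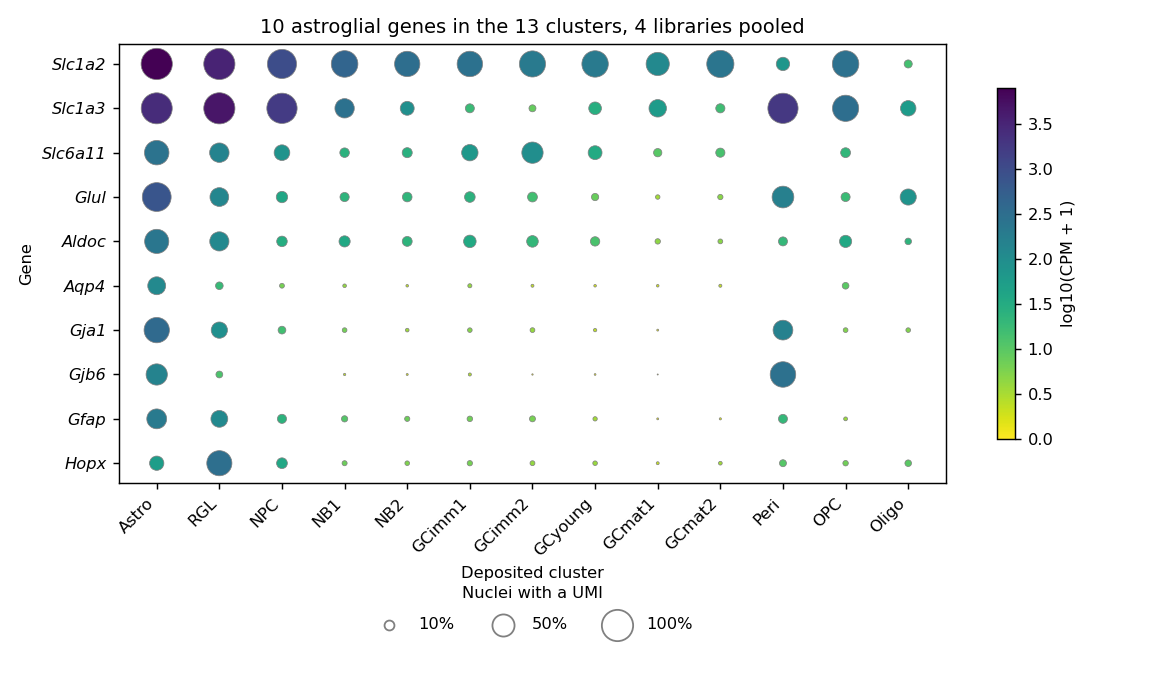
The 10 genes (rows) in the 13 deposited clusters (columns), 4 libraries pooled; colour is log10 of CPM with 1 added, and the area of a dot is the percent of nuclei with a UMI. Astro is the column with the highest level for 7 genes, RGL for Hopx and Slc1a3, and Peri for Gjb6; Slc1a2 has a UMI in 55.0% to 75.6% of nuclei in the neuronal clusters, at their unequal depths.

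Across all 13 clusters 7 of the genes were highest in Astro, Hopx and Slc1a3 in RGL, and Gjb6 in the cluster deposited as Peri. That cluster of 60 nuclei held 8 of 9 vascular and leptomeningeal markers at their highest level, among them Slc6a13 and Dcn, but no UMI of Rgs5, a defining marker of pericytes. Gjb6 stood there at 142 CPM in w1 and 358 in w2, against 80.1 to 192 in Astro. The log2 change from Astro was 0.84 (SE 0.43, 95% interval -0.02 to 1.69, edgeR adjusted p = 0.20), so the clusters were not shown to differ. Gja1 was lower than in Astro, at 142 and 160 (log2 change -1.47, SE 0.35, edgeR adjusted p = 0.0011). Slc1a3 stood at 1730 and 1900 CPM and did not pass (log2 change -0.65, SE 0.26, 95% interval -1.17 to -0.14, edgeR adjusted p = 0.078), although RLE scaling called it. Slc1a2 was 114-fold lower than in Astro, and Aqp4 and Slc6a11 had no UMI, at least 12.3-fold and 27.1-fold lower. These folds are pooled, and w2 gave 40 of the 60 nuclei. Slc1a2 stood at 142 CPM in w1 and 37.7 in w2. In all, 8 of 10 members were called lower in Peri, where 9.66% of 11548 genes tested in the fit of 13 clusters were called lower, and 7 with DESeq2, which lost Gja1. Among the 8, Aqp4 and Slc6a11 passed the filter on low counts only through other clusters.

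In oligodendrocytes (Oligo, 45 nuclei) 9 of 10 members were lower than in Astro, with 11.7% of all genes called lower, and in oligodendrocyte precursor cells (OPC, 131 nuclei) all 10 were, with 9.6% called lower. Oligo had no UMI of Gfap, Aqp4, Gjb6 or Slc6a11, which puts them at least 14.9-fold, 8.52-fold, 10.3-fold and 18.8-fold lower. Glul had the highest level of the members there, at 77.4 CPM against 749 in Astro. Hopx, with 2 UMIs in Oligo, did not pass (log2 change -2.37, SE 1.11, edgeR adjusted p = 0.14). OPC kept Slc1a3 at 323 CPM, with a UMI in 70.2% of nuclei, and Slc1a2 at 283. Gjb6 had no UMI in OPC and was at least 31.6-fold lower than in Astro. Members with no UMI in Oligo, OPC or Peri passed the filter on low counts only through other clusters. No fit of Astro with a single such cluster was made.

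Along the neuronal clusters the levels were not all in falling order. Slc6a11 stood at 23.3, 27.9 and 24.6 CPM in NB1 of w1, w2 and w4, and at 90.6, 109 and 113 in GCimm2 of w2, w4 and w8, with GCimm1 in between at 48.9, 63.5 and 86.8 in w1, w2 and w4. It then stood at 33.2 and 27.9 in GCyoung and at 13.9 and 8.57 in GCmat1 of w4 and w8. After thinning to 2000 UMIs, 4.59% of NB1, 16.6% of GCimm2 and 1.88% of GCmat1 nuclei had a UMI. The libraries of NB1 and GCimm2 did not overlap, but the share of all genes without overlap was not counted. The pooled level of Slc6a11 in GCimm2 was 37.7% of that in Astro. Slc1a3 had its neuronal low in GCimm2, at values between 6.66 and 7.38, and was at 32.2 in w4 and 62.8 in w8 in GCmat1. Pooled, GCmat1 stood at 58.7 CPM of Slc1a3, beside 59.2 in Oligo (13 UMIs, interval 31.5 to 101). Whether RNA from other cells had a part in either level was not tested. Slc1a2 was read at 113.5 CPM in GCmat1 and between 201 and 273 in GCimm1, GCimm2, GCyoung and GCmat2. These neuronal patterns were singled out after their values were seen and were not tested.

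Nuclei differed in how many of the 10 genes they showed at a common depth. After thinning each nucleus to 2000 UMIs, an Astro nucleus had a UMI of 4.42 members on average, an RGL nucleus of 3.40, an NPC nucleus of 1.99, an NB1 nucleus of 1.01 and a GCmat1 nucleus of 0.353. At least 5 members were seen in 47.8% of 67 Astro nuclei and in 14.7% of 1372 RGL nuclei, while the highest number in 206 NPC nuclei was 4. At least 3 were seen in 91.0% of Astro nuclei (interval 81.5 to 96.6%), 79.2% of RGL nuclei (77.0 to 81.3%) and 23.8% of NPC nuclei (18.1 to 30.2%). The means lay between 4.32 and 4.58 over the Astro libraries, between 3.31 and 3.51 in RGL and between 1.87 and 2.17 in NPC, so the clusters did not overlap. Of the RGL nuclei 15 of 1372 had fewer than 2 members.

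**Figure D4:**
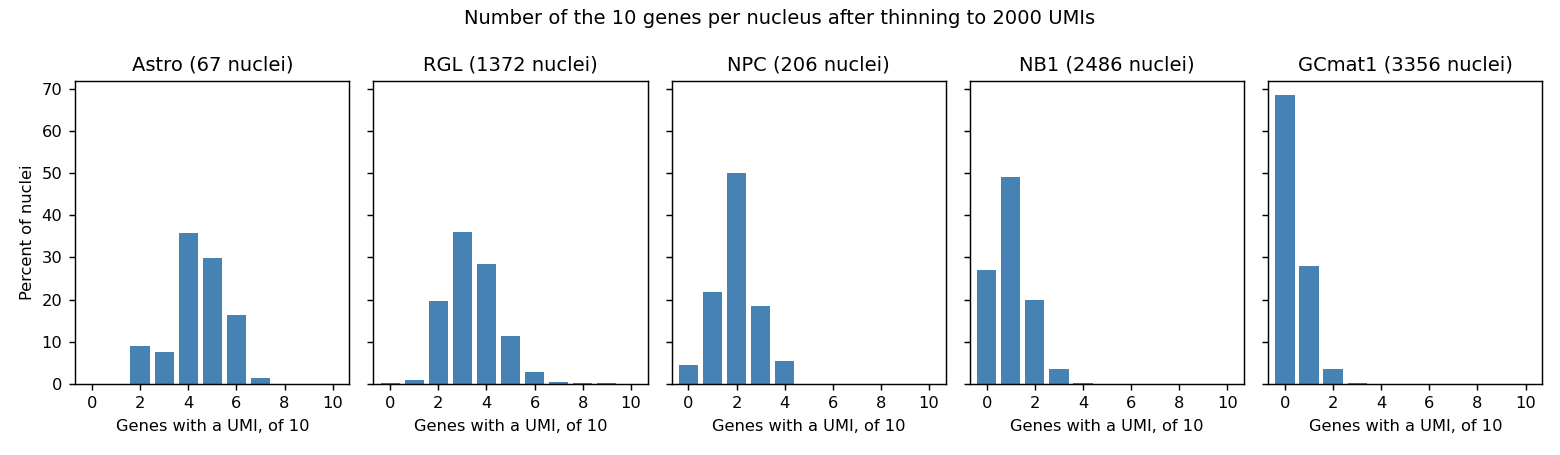
Percent of nuclei (y axis) by the number of the 10 genes with at least 1 UMI (x axis), after each nucleus was thinned to 2000 UMIs, in 5 clusters. The mean shifts from 4.42 in Astro and 3.40 in RGL to 1.99 in NPC, 1.01 in NB1 and 0.353 in GCmat1.

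Within RGL and within NPC, nuclei were put in order by the deposited pseudo-time, which the authors fitted to the same expression values. In 4 bins of 346 or 347 nuclei the summed level of the 10 genes went from 10569 CPM through 9247 and 8440 to 7483, and in 3 bins of NPC from 4101 through 2431 to 2031. The median depth also fell over the RGL bins, from 5382 to 3321.5 UMIs. Slc1a3 (5654 in the first RGL bin and 4069 in the last) and Slc1a2 (3986 and 2570) made up most of this slope. Slc1a2 was lower in each following bin in w2 (from 4232 to 2460) and w4 (from 3654 to 2841). In w1 it went from 3814 to 2591 with 4214 in the second bin. Glul went from 155 to 92.4 and Gjb6 from 19.1 to 6.21.

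Hopx and Gfap did not share this slope. Hopx stood at 286, 306, 346 and 308 CPM over the RGL bins and at 73.5, 22.8 and 10.2 over those of NPC, so that it was 76.2% lower in the first NPC bin than in the last RGL bin. Gfap stood at 76.3, 163, 93.8 and 136 over the RGL bins and then at 16.0 in the first NPC bin. Of the 347 nuclei in the first bin 234 were of w1, in which Gfap stood at 56.9, while in w2, w4 and w8 it stood at 101, 195 and 98.2. Slc6a11 stood at 109 in the last RGL bin, at 121 in the first NPC bin (interval 85.9 to 167) and at 37.5 in the last. Between the last RGL bin and the first NPC bin Gja1 was 83.0% lower (4 UMIs in NPC), Aldoc 74.5% (8 UMIs) and Glul 65.4%. Slc1a2 was 41.4%, Slc1a3 43.4% and Aqp4 43.9% (3 UMIs) lower. These bins overlap in pseudo-time, at 1.55 to 7.65 and 2.28 to 7.88, and are set apart by cluster label. Libraries differed: Aldoc went from 42.1 to 24.1 CPM in w1 and from 130 to 29.5 in w2. Glul went from 51.8 to 24.1 and from 105 to 49.1, and Gja1 from 32.4 to 12.1 and from 103 to 9.83. No order of bins was tested.

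**Figure D5:**
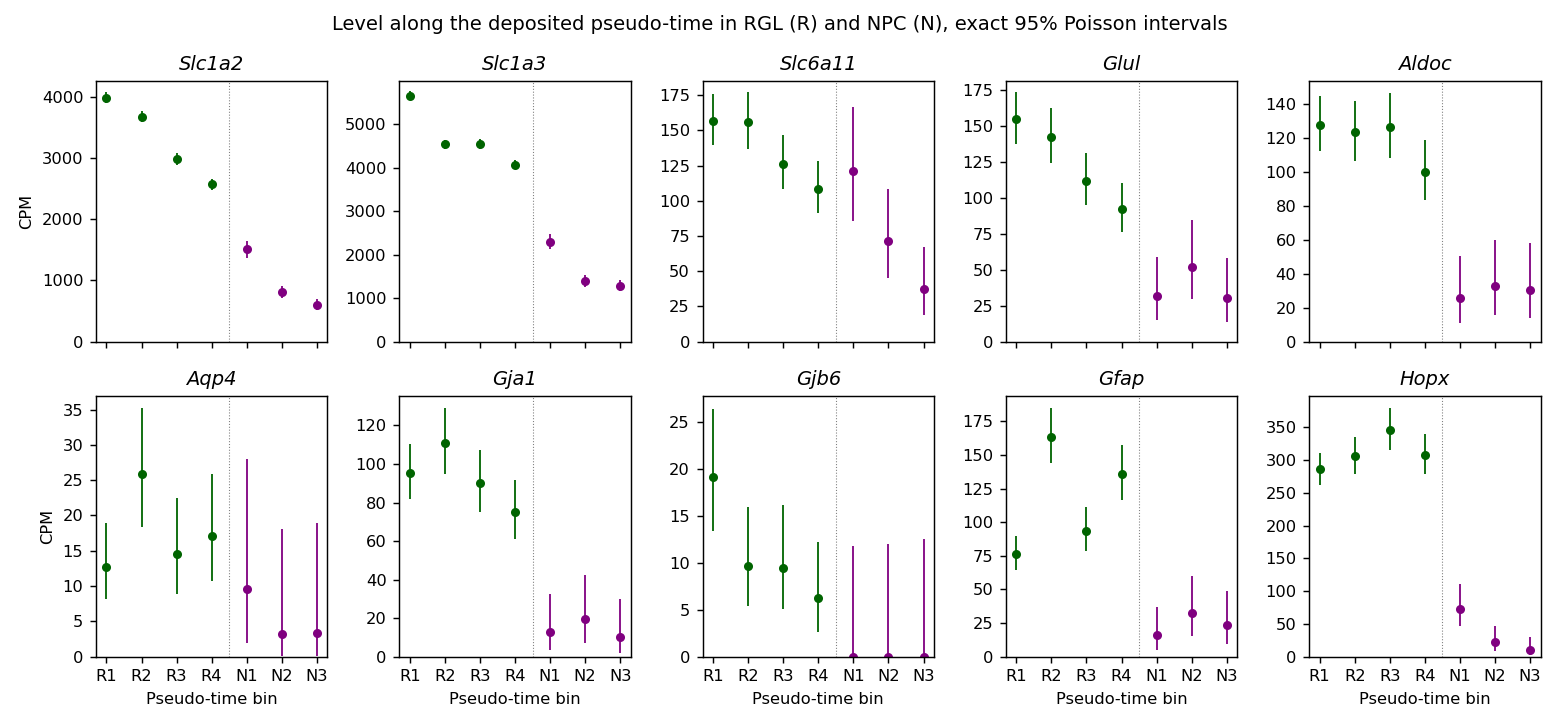
Level of each gene in CPM (y axis) in 4 bins of RGL nuclei (R1 to R4, green) and 3 bins of NPC nuclei (N1 to N3, purple) ordered within each cluster by the deposited pseudo-time, with exact 95% Poisson intervals. R4 and N1 overlap in pseudo-time. Slc1a2 slopes from 3986 in R1 to 603 in N3, whereas Hopx lies between 286 and 346 in RGL and steps to 73.5 in N1.

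RGL nuclei of the 4 cohorts differed in some members, which can be given only as values since each cohort is 1 pool. Slc1a2 was highest in w8, at 4539 CPM (interval 4306 to 4781) against 3018 to 3681 in the other cohorts. Glul stood at 245 in w8 (194 to 307) against 112 to 127, and Aqp4 at 44.6 (24.4 to 74.9) against 11.7 to 22.1, with an interval that overlapped that of w4. Slc6a11 stood at 204 (157 to 260) against 118 to 152, with an interval that overlapped that of w1. Gjb6 stood at 25.5 (11.01 to 50.2, from 8 UMIs) against 9.87 to 12.2, with an interval that overlapped those of the other cohorts. Gja1 was also highest in w8, but at 105.2 (72.4 to 148) it differed from the other cohorts, at 80.5 to 104.8, by less than its counting error. Hopx was lowest in w8, at 245 (194 to 307) against 295 to 329, and its interval overlapped those of the other cohorts. Only 83 RGL nuclei were of w8, and 49 of them lay in the first pseudo-time bin. The 7 astrocyte markers that are not members were also highest in RGL of w8, summing to 5750 CPM against 3789 to 4698 in the others. Over all cohorts Gpc5 made up most of this RGL sum (3838.5 CPM). Grin2c had 1 UMI in RGL of w8, or 3.19 CPM (interval 0.08 to 17.8), against 206 to 429 in the Astro libraries. Cluster Astro held no nuclei of w8. Whether the split of nuclei between Astro and RGL had a part in the w8 values was not tested. Slc1a3, Aldoc and Gfap of w8 lay within the range of the other cohorts.

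Other genes with astroglial roles were taken from 8 lists with 96 genes, of which 90 were tested. From Astro to RGL 37 were lower, 3 higher and 50 did not pass, beside 4.82% lower and 4.77% higher of all genes, with a median log2 change of -0.68. From RGL to NPC 48 were lower, 5 higher and 37 did not pass, beside 15.9% lower and 13.7% higher of all genes, with a median of -1.23. The lists were not alike: from Astro to RGL the medians of the filament and transcription factor lists were 0.10 and 0.16, and from RGL to NPC that of the gap junction list was 0.56. Among genes of transmitter uptake and metabolism 5 of 14 were lower in RGL and 2 higher. Slc7a10, a transporter of serine and other small neutral amino acids, fell from 307 CPM to 33.0 (log2 change -3.23, SE 0.29, edgeR adjusted p = 8.8e-13). The glutamine carrier Slc38a3 also fell (log2 change -2.16, SE 0.42), but the glutamine carrier Slc38a1 rose from 56.7 to 424 (log2 change 2.94, SE 0.34, edgeR adjusted p = 1.5e-09), and Pcx, pyruvate carboxylase, rose too (log2 change 1.87, SE 0.27). In NPC 11 of the 14 were lower than in RGL, with Glud1, glutamate dehydrogenase, going from 543 to 95.2 (log2 change -2.80, SE 0.20).

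Genes of potassium, water and pH balance were lower in RGL than in Astro for 8 of 14 and lower in NPC than in RGL for 9 of 14. Trpm3, a cation channel, fell from 2831 to 248 CPM (log2 change -3.64, SE 0.42) and the potassium channel Kcnj16 from 38.8 to 3.77 (log2 change -3.29, SE 0.64). Dtna, which anchors channels at endfeet, stood at 2238 in Astro and fell from 2570 in RGL to 358 in NPC (log2 change -3.11, SE 0.22, edgeR adjusted p = 4.8e-17), and Mlc1 fell in the same step (log2 change -2.65, SE 0.41). Of the gap junction and network list Cldn10, a claudin, and Nfasc, a cell adhesion protein, were lower in RGL (log2 changes -2.17 and -1.60), while Gjc1 and Panx1 rose from RGL to NPC (log2 changes 4.30 and 2.96, from 0.984 and 5.08 CPM).

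Of 15 genes of glycolysis, lactate and glycogen 6 were lower in RGL and 9 did not pass, while in NPC 4 were lower, a share not far from the 15.9% of all genes, and 11 did not pass. Pfkp, a phosphofructokinase, fell from 215 CPM in Astro to 15.1 in RGL (log2 change -3.80, SE 0.31), and Pygm, glycogen phosphorylase, from 14.9 to 1.48 (log2 change -3.39, SE 0.96, edgeR adjusted p = 0.013). From RGL to NPC the glycogen genes Ppp1r3c and Phkg1 fell, from 30.2 to 1.09 CPM (log2 change -4.81, SE 0.84) and from 185 to 14.2 (-4.09, SE 0.30). Among filament and calcium-binding genes S100b was lower in RGL (log2 change -1.78, SE 0.50), and S100a6 and Vim fell in NPC. The lipid genes Clu and Cpt1a were lower in RGL than in Astro and lower in NPC than in RGL. Clu stood at 436 CPM in Astro, 153 in RGL and 27.4 in NPC. Receptors were lower in RGL for 9 of 12 and in NPC for 9 of 12, led by Grin2c (log2 change -6.71, SE 0.43) and Gabbr2 (-3.78, SE 0.50) in the former and by S1pr1 (-3.02, SE 0.50) and Itpr2 (-2.80, SE 0.27) in the latter.

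Of the astroglial transcription factors 2 of 14 were lower in RGL than in Astro (Rorb, log2 change -3.15, and Id3, -2.75) and Zbtb20 was higher (0.99). From RGL to NPC 6 of 14 were lower and 3 higher, beside 15.9% and 13.7% of all genes. Id4 fell from 207 to 14.2 CPM (log2 change -4.24, SE 0.35, edgeR adjusted p = 7.6e-15) and Hes1 from 20.0 to 2.19 (log2 change -3.53, SE 0.84), whereas Nfix rose from 273 to 709 and Nfib from 1612 to 3875 (log2 changes 1.00 and 0.98). Both encode nuclear factor I proteins.

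The genes whose course over the 13 clusters was most like that of each member were sought among 13270 genes with at least 200 UMIs, by Pearson's r of log2(CPM + 1). The points share libraries and depth, so r is given as a description. Hopx was closest to Ttll3 (r = 0.962) and Gm10561 (r = 0.956), both highest in RGL. Slc1a3 was closest to 2010315B03Rik (r = 0.962) and Eya4 (r = 0.959), and Slc1a2 to Pitpnc1 (r = 0.957) and Gm11714 (r = 0.953). Gfap was closest to Cbs (r = 0.976) and Scara3 (r = 0.975), Glul to Sepp1 (r = 0.970) and Mepce (r = 0.959), and Aldoc to the metallothionein genes Mt2 (r = 0.973) and Mt1 (r = 0.972). Aqp4 was closest to Gm13872 (r = 0.972), which is antisense to Slc1a2, and to Gm26512 (r = 0.957). Gja1 was closest to Epm2aip1 and Tulp3 (both r = 0.970), Gjb6 to Slc25a3 (r = 0.960) and Ranbp3l (r = 0.953), and Slc6a11 to Hsd17b10 (r = 0.951) and Dnaic1 (r = 0.944). Among the 45 pairs of members r lay between -0.02 and 0.939, with a median of 0.709.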

How the data were processed

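Nuclei of 4 libraries were counted, each a pool of 4 left dentate gyri. Per the labels and the study's methods, the authors aligned reads with STARsolo 2.7.4a to GRCm38 without multi-mapped reads and deposited UMI counts per gene and nucleus from exons and introns. The study states that UMIs were counted with default parameters and does not name the strand setting. They removed doublets, low-quality nuclei and a group of nuclei of w4, which left 14367 of 17046 barcodes, and deposited log2 values (counts over size factors, with 1 added), clusters and pseudo-time for those. The log2 values were used here only for an alternative.

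Counts were summed by library and cluster where at least 10 nuclei were present (29 sums of Astro, RGL, NPC and the neuronal clusters, 16 residual degrees of freedom) and tested with edgeR 4.0.16 (TMM scaling, filterByExpr, quasi-likelihood, terms for cluster and library) in R 4.3.3. Peri, Oligo and OPC entered a fit of all 13 clusters (38 sums). Astro of w8 had no nuclei, and NPC of w8 had 2 and was not summed. The p-values measure the spread between sums of pools, not between animals. DESeq2 1.42.0, RLE scaling, other filters, thinning and leaving out each library were tried as alternatives. On simulated counts for the 13513 genes with 200 changed, 100 per fold size, the Astro to RGL test recovered 13 of those changed 2-fold and 53 of those changed 4-fold, with 2 false calls. For RGL to NPC 36 and 64 were recovered, with 3 false calls, and for NPC to NB1 32 and 70, with 7. Apart from the changes put in, each simulated gene had the same mean level in all sums, without cluster or library effects. Changed genes were drawn at random from all genes tested, so these rates are not those of the members. The members and lists were chosen with earlier results of these data known. Named in the text are the members, for each list the 2 genes with the largest increase and decrease from Astro to RGL and from RGL to NPC, the 2 nearest genes of each member, and markers that check a label. Among kept barcodes 22 were shared between libraries. Tables were made with Python 3.11.15, scipy 1.17.1 and pandas 2.3.3. The driver of the Cre and 1 of the RGL markers are not reported here.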

Additional observations from a re-analysis of the deposited data

Results flagged for a closer look

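The barcodes that the authors left out carried a signal of the 10 genes that none of the comparisons used. Their summed level was 2249 CPM in 410 barcodes of w1 (95% Poisson interval 2187 to 2312), 2262 in 373 of w2 (2208 to 2317), 400 in 1628 of w4 (399.825 before rounding, 390.02 to 410) and 421 in 268 of w8 (396 to 447). The kept nuclei of the same libraries stood at 2517, 1301, 786 and 313. The left-out barcodes were thus above the kept nuclei in w2 and w8 and below them in w1 and w4, and which cells they were was not tested. No group held 4 or more replicate libraries, so no search for outlying samples within a group was made.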

How the results depend on the processing

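No member changed its direction under any alternative. No paired analysis was possible because each week, as a group, is 1 library. Clusters of a library were joined by the library term, and without that term 8 of 10 members were called from Astro to RGL (Aldoc and Gfap lost), 10 from RGL to NPC and 4 from NPC to NB1. Of the 10 members called from Astro to RGL, 6 were called after thinning to 2000 UMIs, 6 when the change had to be 2-fold or more and 6 by the difference of mean deposited log2 values past log2 of 1.5, and leaving out 1 library gave 7 to 9. From RGL to NPC the 10 became 3 by the deposited log2 values and 7 to 10 without 1 library. The mean log2 value of a gene seen in few nuclei is near 0 and cannot fall by log2 of 1.5. Gjb6, with a UMI in 4.76% of RGL nuclei and 0 UMIs in NPC, differed by -0.056. How many of the lost calls this limit covers was not tested. From NPC to NB1 the 4 became 2 by the log2 values and stayed at 4 without any 1 library. From Astro to RGL the call was lost for Gfap in 11 of 14 alternatives (adjusted p 0.0044 to 0.57), for Aldoc in 8 (0.00015 to 0.35), for Slc6a11 in 4 (0.00010 to 0.20), for Slc1a3 in 3 (4.7e-07 to 0.20) and for Aqp4 in 2 (1.4e-10 to 0.11). Slc1a2, Glul, Hopx, Gja1 and Gjb6 kept theirs in all 14. From RGL to NPC Aqp4 lost its call in 6 of 13. Counted over all barcodes, the summed level was 2478, 1407, 640.2 and 322 CPM for w1, w2, w4 and w8, beside 2517, 1301, 786 and 313 in kept nuclei. The mean number of members per nucleus at 1000 and 4000 UMIs was 3.39 and 5.78 in Astro, 2.69 and 4.33 in RGL, 1.55 and 2.42 in NPC and 0.635 and 1.48 in NB1, in the same order of clusters. With 6 RGL bins the last stood at 65.5% of the first, beside 70.8% with 4.

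Astro rests on 67 nuclei, NPC on 211, and each week on 1 pool. Some calls rest on few UMIs in a cluster, such as 18 of Hopx in Astro, 5 of Aqp4 in NPC and 1 of Gja1 in Oligo. So do calls of list genes at low CPM, such as Ppp1r3c and Hes1 in NPC.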
